A study of Homo sapiens with 6 samples.

Results

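The 10 genes described here, ODC1, AMD1, SRM, SMS, OAZ1, OAZ2, AZIN1, SAT1, PAOX and SMOX, make, restrain or break down the polyamines. They were picked by symbol from a deposited table of read counts per transcript: 63 of its 98886 transcripts carry 1 of these symbols in the GENCODE v29 annotation, and the 10 genes are among 18750 genes with counts. The counts of all transcripts of a gene were summed in each library. The genes were chosen with the result of the comparison below already known, among it the higher OAZ2 sum after silencing, so their differences between groups are a description and carry no p-value.

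The cells are labelled HCT116, an established line of human colorectal cancer, and RNA sequencing asked which mRNAs differ after the long non-coding RNA AC010789.1 is silenced. The cells received either the siRNA that targets AC010789.1 (group si-AC010789.1, 3 libraries) or a negative control siRNA (group siRNA-NC, 3 libraries), and the labels give no other treatment. The study describes the replicates as biological repeats made from different generations of cells, and whether libraries with the same number shared a generation is not given in the sources used here, nor is the time from transfection to RNA extraction. The errors and p-values below measure the spread between these libraries. The level of AC010789.1 itself was not analysed here.

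Total counts ran from 11277222 to 13443866 per library, and 3 counts, taken as the floor, corresponded to between 0.223 and 0.266 CPM, the usual scale of counts relative to the library total. Of 15 epithelial markers of the colon and rectum, 5 reached at least 1 CPM in every library. On average in siRNA-NC these were KRT8 at 719, KRT18 at 395, ELF3 at 85.7, CLDN7 at 23.5 and EPCAM at 3.62 CPM. CLDN4 averaged 24.2 CPM in siRNA-NC and fell to 0.320 CPM in si-AC010789.1 replicate 2. KRT19, KRT20, CDX1, CDX2, VIL1, CEACAM5 and ESRP1 had no counts. CLDN3 was at 0.189 CPM and E-cadherin (CDH1) at 0.688 CPM in siRNA-NC, so the defining markers of colorectal epithelium were absent in part. Of 8 mesenchymal markers, vimentin (VIM) was at 831, CDH2 at 57.1, COL1A1 at 43.3 and FN1 at 34.2 CPM in siRNA-NC. COL3A1 (3.26 CPM), DCN (2.01 CPM) and ACTA2 (1.93 CPM) were low there, and COL1A2 had no counts. These levels put the label HCT116 in doubt, and the identity of the cells was not tested. The summed level of the 15 markers ran from 1121 to 1351 CPM among siRNA-NC libraries and from 888 to 1159 CPM among si-AC010789.1 libraries. That of the 8 mesenchymal markers ran from 903 to 1064 CPM and from 800 to 979 CPM, and the groups overlapped for both lists. KRT8 and KRT18 made up most of the epithelial sum and VIM most of the mesenchymal sum. In si-AC010789.1 their means were 534 CPM for KRT8, 419 CPM for KRT18 and 728 CPM for VIM. Blood markers summed to at most 9.05 CPM, endothelial to at most 2.51 CPM, neural to at most 2.10 CPM, and hepatocyte markers had no counts. The part of these differences in marker levels in the results below was not tested.

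Polyamines (putrescine, spermidine and spermine) are small, positively charged molecules that bind RNA and other nucleic acids and are needed for growth, and their synthesis is often raised in colorectal tumours. Ornithine decarboxylase (ODC1) makes putrescine, AMD1 makes the aminopropyl donor, and the synthases SRM and SMS add aminopropyl groups to give spermidine and then spermine. Antizymes (OAZ1, OAZ2) bind ornithine decarboxylase, send it to the proteasome without ubiquitin and curb polyamine uptake, and the antizyme inhibitor AZIN1 is an inactive relative of the enzyme that draws antizyme away from it. SAT1 acetylates spermidine and spermine for export or for oxidation by PAOX, while SMOX oxidises spermine directly.

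Among the 10 genes, OAZ2 stood apart between the groups, and the synthesis enzymes, OAZ1, SAT1 and SMOX lay close to the same level in both. Of the 10 genes, 9 passed the filter on low counts, and 7 of these had a higher and 2 a lower sum in si-AC010789.1 libraries. Their median log2 fold change was 0.07, against -0.000662 for all 13750 genes tested, and their median absolute log2 fold change was 0.12, against 0.14 for all genes. OAZ2 alone passed an adjusted p-value of 0.05 in edgeR's quasi-likelihood test, a threshold that 0.982% of all genes passed and 0.284% passed in the direction of higher values. The groups did not overlap for OAZ2 and AZIN1, as was the case for 25.1% of all genes, 12.2% with higher and 12.9% with lower values. OAZ2 also met the cut-offs of the study, an unadjusted p-value under 0.05 with an absolute log2 fold change over 1, with edgeR's p-values. Of all genes, 0.778% met them. The study applied its cut-offs to Cuffdiff results and also excluded genes that differed markedly within a group, and neither step was repeated here. Since values of this comparison chose the genes, nothing is read from these shares. In such bulk RNA, fewer cells of a kind and less RNA per cell cannot be told apart.

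**Figure D1:**
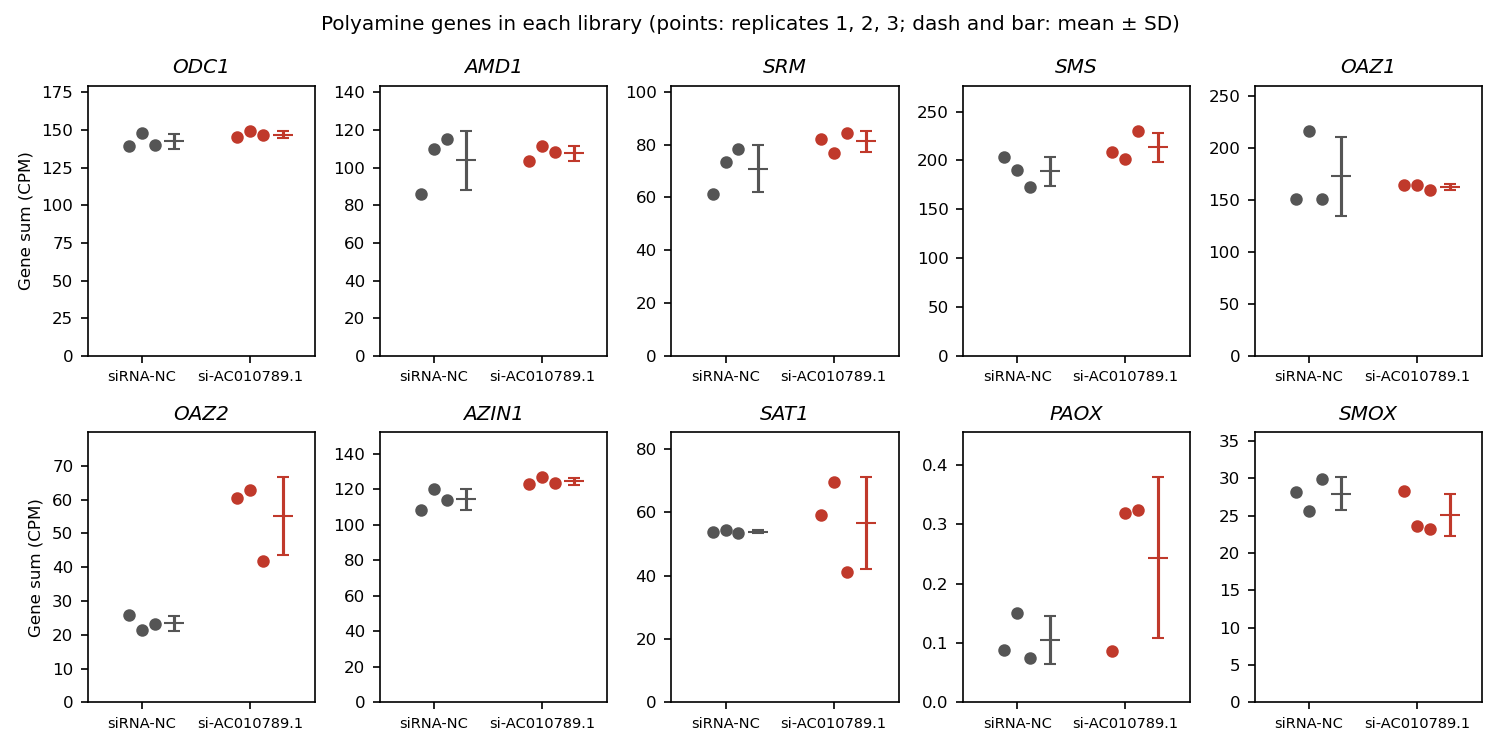
Gene sums in CPM (y axis from 0) of the 10 polyamine genes in each siRNA-NC (grey) and si-AC010789.1 (red) library; points are replicates 1, 2 and 3 from left to right, and the dash and bar are the mean and SD over 3 libraries. The 3 red points of OAZ2 lie at 60.4, 63.0 and 41.9 CPM, above its grey points at 25.8, 21.3 and 23.2 CPM, and most other panels show overlapping groups.

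Divided by transcript length and scaled to the same total in every library, which allows genes to be compared, OAZ1 had the highest level in siRNA-NC with 312 ± 71.6 (SD, n = 3), followed by SMS with 219 ± 21.1. ODC1 (134 ± 4.99) and SRM (125 ± 16.2) overlapped, then came SAT1 at 103 ± 1.15. AMD1 (60.6 ± 4.35) and AZIN1 (57.7 ± 3.75) overlapped, as did OAZ2 (28.2 ± 5.74) and SMOX (28.2 ± 1.23), and PAOX was last with 0.109 ± 0.0426. The ratio of the length-scaled levels of OAZ1 and ODC1, antizyme and enzyme, was 2.32 ± 0.438 in siRNA-NC, against 2.13 ± 0.155 in si-AC010789.1 (SD, n = 3 each), ranges that overlapped. These levels depended on the length used. With the longest transcript of each gene as its length, that ratio was 1.13 ± 0.205 against 1.04 ± 0.0196. On the same scale SMS (259) came before OAZ1 (154) in siRNA-NC, SRM (141) before ODC1 (135), AZIN1 (61.0) before AMD1 (55.1) and SMOX (30.3) before OAZ2 (8.32).

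The synthesis enzymes came first in the pathway and differed little. ODC1 (chr2:10439968-10448504, minus strand, GRCh38), the rate-limiting enzyme and a classic target of MYC, was at 139, 148 and 140.0 CPM in siRNA-NC replicates 1, 2 and 3 and at 145, 149 and 146 CPM in si-AC010789.1 replicates 1, 2 and 3. The groups overlapped, and the log2 fold change of si-AC010789.1 over siRNA-NC was 0.04 ± 0.05 (standard error). Within each group the highest ODC1 library exceeded the lowest by 1.06-fold in siRNA-NC and by 1.03-fold in si-AC010789.1, a narrow spread for these genes. The counts of ODC1 were shared by a pair of coding transcripts. ODC1-202 held 1148, 1498 and 1445 counts in siRNA-NC, against 865, 1614 and 1494 in si-AC010789.1, and ODC1-201 held 411, 459 and 408 against 788, 248 and 304. In si-AC010789.1 replicate 1 the shorter ODC1-202 was thus at its lowest and ODC1-201 at its highest while the sum stayed level.

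AMD1 (chr6:110874770-110895713, plus strand), the decarboxylase of S-adenosylmethionine, was at 86.1, 110.1 and 115 CPM in siRNA-NC, against 103, 111 and 108 CPM in si-AC010789.1. Only siRNA-NC replicate 1 lay below the others, and the log2 fold change of 0.05 ± 0.11 turned to -0.06 without that library. Its main coding transcript AMD1-204 followed the sum, with 698, 1237 and 1239 counts against 860, 1203 and 1054. In siRNA-NC replicate 1 another 113 counts were assigned to AMD1-202, which had no count in the other 5 libraries. Of its processed pseudogenes, which share near-identical sequence, AMD1P3 had 1 to 5 counts per library.

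SRM (chr1:11054584-11060024, minus strand), which makes spermidine, was at 61.2, 73.3 and 78.3 CPM in siRNA-NC, against 82.3, 76.9 and 84.5 CPM in si-AC010789.1. The highest siRNA-NC library overlapped the lowest si-AC010789.1 library, and the log2 fold change was 0.19 ± 0.10. Its coding transcript SRM-201, with 637, 900 and 943 counts against 852, 913 and 962, held a mean of 92.1% of the SRM counts. SRM-202, a transcript annotated for nonsense-mediated decay, was at 0 in every siRNA-NC library and at 10, 3 and 9 counts in si-AC010789.1. Its count in si-AC010789.1 replicate 2 is the floor itself, so no fold is given. This transcript, singled out after its values were seen, held a mean of 0.373% of the SRM counts and did not pass the filter on low counts.

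SMS (chrX:21940573-21994835, plus strand), which makes spermine, was at 203, 189.96 and 173 CPM in siRNA-NC, against 208, 202 and 230.1 CPM in si-AC010789.1. The siRNA-NC replicate 1 value exceeded the lowest si-AC010789.1 value, and the log2 fold change was 0.18 ± 0.08. SMS-202 carried 1903, 2080 and 1996 counts against 1986, 2069 and 2297, and SMS-201 carried 317, 349 and 246 against 272, 277 and 393, both with overlapping groups in CPM. The shorter coding transcript SMS-203, singled out after its values were seen, was at 6.47, 6.63 and 4.41 CPM in siRNA-NC, against 10.95, 14.02 and 12.5 CPM in si-AC010789.1. These groups did not overlap, with a log2 fold change of 1.10 ± 0.27, in a transcript that held a mean of 4.39% of the SMS counts.

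The antizymes are made in an unusual way, and the annotation reflects it. Their reading frame holds a stop codon that ribosomes pass by slipping forward by a single base, a frameshift that polyamines promote. In GENCODE v29 the main coding transcript models of OAZ1 and OAZ2 write the shift as a gap of 1 base between a pair of exons, a feature found in 229 of 206534 annotated transcripts, while other models of both genes, among them the coding OAZ1-204, keep the base. The site is shown because the transcript models to which antizyme counts were assigned differ in it. The gap is a feature of the models, so counts in gapped models do not show RNAs that lack the base. The capitals mark the last codon before the shift, the stop codon TGA and the base after it, or, in the gapped models, what is left of them. The lines come from the GENCODE v29 transcript sequences (GRCh38), 5′ to 3′ on the strand of the gene, for chr19:2271428-2271457 (plus strand, OAZ1) and chr15:64691501-64691530 (minus strand, OAZ2).
OAZ1, site intact, in OAZ1-201: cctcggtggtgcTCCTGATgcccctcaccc
OAZ2, site intact, in OAZ2-209: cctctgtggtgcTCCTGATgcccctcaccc
OAZ1, 1 base left out, in OAZ1-211: cctcggtggtgcTCCGATgcccctcaccc
OAZ2, 1 base left out, in OAZ2-201: cctctgtggtgcTCCGATgcccctcaccc
Over these 30 bases the intact sites of the antizymes differed at 1 position, G5T (OAZ1 base first, counted from 1 at the 5′ end of the window), and the capitals were identical.

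OAZ1 (chr19:2269509-2273490, plus strand), the most abundant antizyme, was at 151, 216 and 151 CPM in siRNA-NC, against 164, 165 and 159.5 CPM in si-AC010789.1. siRNA-NC replicate 2 alone stood above the rest, and the log2 fold change was -0.09 ± 0.14. This library also differed from all others in which transcripts held the counts. OAZ1-211, the main coding transcript, had 1237, 269 and 1451 counts in siRNA-NC, against 1377, 1632 and 1459 in si-AC010789.1. OAZ1-201, a transcript with a retained intron, had 12, 1764 and 244 against 181, 1 and 22. Models with the 1-base gap held 26.7% of the OAZ1 counts in siRNA-NC replicate 2 and between 74.5% and 83.6% in the other 5 libraries, and models with the intact site held 69.6% in that library and between 8.88% and 19.2% elsewhere. All counted OAZ1 models with the intact site are annotated as retained introns, except the coding OAZ1-204 with 2 to 17 counts per library. These shares thus follow the transcript types and not the site itself. Without siRNA-NC replicate 2 the log2 fold change of the sum was 0.11. With coding transcripts alone the levels were 113, 58.8 and 113 CPM against 124, 139 and 123 CPM, groups that did not overlap, with a log2 fold change of 0.45 ± 0.26, so the direction of OAZ1 depended on which transcripts were summed and on 1 library.

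OAZ2 (chr15:64687573-64703281, minus strand), an antizyme expressed at lower levels, had 291, 283 and 309 counts in siRNA-NC, against 691, 788 and 518 counts in si-AC010789.1. In CPM these were 25.8, 21.3 and 23.2 against 60.4, 63.0 and 41.9, every si-AC010789.1 library lying above every siRNA-NC library. The mean went from 23.4 ± 2.24 to 55.1 ± 11.5 CPM (SD, n = 3 each), 2.35-fold, with a log2 fold change of 1.23 ± 0.17. With each library left out in turn the log2 fold change lay between 1.13 and 1.39, and the adjusted threshold was then passed only without si-AC010789.1 replicate 3, when 12 genes of all those tested passed it. With the replicate number as a block the log2 fold change was 1.21 ± 0.16, and neither OAZ2 nor any other gene passed the adjusted threshold.

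The higher OAZ2 sum was carried by different transcripts in different libraries. The coding transcript OAZ2-201, which contains the gapped site, had 171, 209 and 146 counts in siRNA-NC, against 414, 728 and 153 in si-AC010789.1. It was high in si-AC010789.1 replicates 1 and 2 and, in replicate 3, inside the siRNA-NC range. OAZ2-202, annotated as a retained intron, had 16, 48 and 71 counts in siRNA-NC, against 268, 53 and 276 in si-AC010789.1. This transcript was high in si-AC010789.1 replicates 1 and 3 and, in replicate 2, inside the siRNA-NC range, and it held 38.8%, 6.73% and 53.3% of the OAZ2 counts there against 5.50%, 17.0% and 23.0% in siRNA-NC. Over all genes, retained-intron transcripts held 5.86% to 6.30% of the counts in siRNA-NC, against 6.04% to 6.27% in si-AC010789.1. These pooled shares overlapped, and they do not show what happened in single genes.

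OAZ2-202 is 7102 bases long, of which 1678 lie in exons of OAZ2-201 and 5424 do not. Most of the latter are in a single exon of 5581 bases (chr15:64690723-64696303) that covers what is an intron of the coding transcripts and contains the intact frameshift site. The antisense gene AC100830.3 lies wholly inside this stretch, over 554 bases of the opposite strand, and had no transcript among those counted. Whether the counting used strand is not given in the sources used here, so reads from an antisense RNA there and from OAZ2-202 cannot be told apart.

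Without OAZ2-202 the OAZ2 sum was 24.4, 17.7 and 17.9 CPM in siRNA-NC, against 36.9, 58.7 and 19.6 CPM in si-AC010789.1. The means still differed 1.92-fold, but the groups overlapped, si-AC010789.1 replicate 3 falling below siRNA-NC replicate 1. With coding transcripts alone the levels were 22.9, 17.3 and 13.7 CPM against 36.2, 58.2 and 18.3 CPM, with a log2 fold change of 1.07 ± 0.43, again overlapping and no longer past the threshold. Divided by the length of each counted transcript, the levels also overlapped: 32.5, 21.7 and 30.5 in siRNA-NC, against 44.5, 61.8 and 28.9 in si-AC010789.1. Such scaling gives a count less weight in a long transcript such as OAZ2-202 and more in a short one. On that scale OAZ2 made up 10.5%, 5.22% and 10.3% of the antizyme pair OAZ1 and OAZ2 in siRNA-NC, against 13.2%, 17.5% and 9.02% in si-AC010789.1. With the longest transcript as the length of all OAZ2 counts, the shares were 6.38%, 3.78% and 5.77% against 12.8%, 13.2% and 9.49%, and the groups did not overlap.

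**Figure D2:**
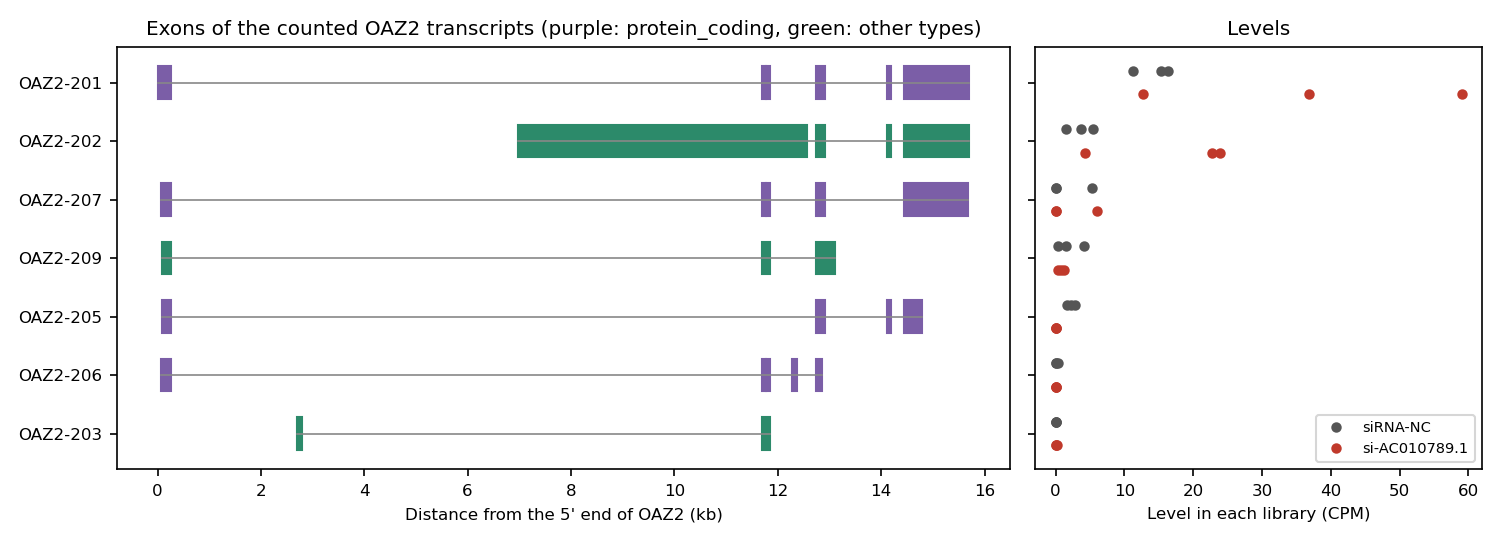
Left, exons (boxes) of the 7 counted OAZ2 transcripts by distance in kilobases from the 5′ end of the gene, protein-coding transcripts in purple and other types in green; right, the level of each transcript in CPM in each siRNA-NC (grey) and si-AC010789.1 (red) library. The long box of OAZ2-202 spans 5581 bases, and 2 of its 3 red points lie at 23.9 and 22.8 CPM, apart from the remaining points at 1.44 to 5.49 CPM.

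Among the smaller OAZ2 transcripts, the coding OAZ2-205 lay the other way, with 25, 21 and 37 counts in siRNA-NC and 0 in all 3 si-AC010789.1 libraries, at least 9.06-fold lower on a floor of 3 counts per library. The sequence of OAZ2-205 holds the frameshift site in neither the intact nor the gapped form. OAZ2-207, with 58 counts in siRNA-NC replicate 1 and 73 in si-AC010789.1 replicate 3, and none elsewhere, shows how counts of a transcript may sit in single libraries of either group.

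**Figure D3:**
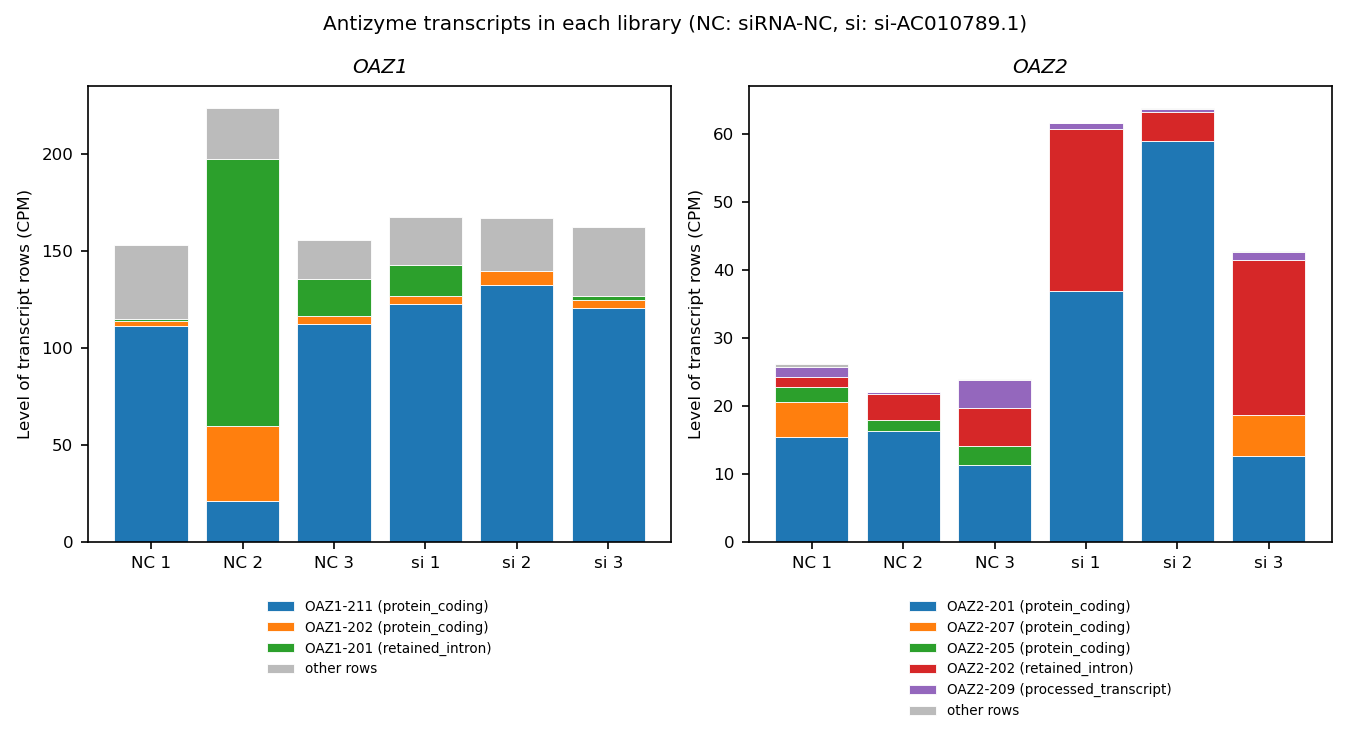
Level in CPM (y axis from 0) of OAZ1 and OAZ2 transcripts stacked in each library, NC for siRNA-NC and si for si-AC010789.1, with the annotated transcript type in the key. In OAZ1 the bar of NC 2 is made up mostly of the retained-intron transcript OAZ1-201 (138 CPM), and in OAZ2 the bars of si 1 and si 3 hold 23.9 and 22.8 CPM of OAZ2-202.

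AZIN1 (chr8:102826357-102893864, minus strand), the antizyme inhibitor, was at 108, 120.4 and 114 CPM in siRNA-NC, against 123, 127 and 124 CPM in si-AC010789.1. The groups did not overlap, but the difference was small, with means of 114 ± 6.02 and 124 ± 1.90 CPM (SD, n = 3 each) and a log2 fold change of 0.12 ± 0.05 that did not pass the adjusted threshold. The coding transcript AZIN1-201, with 1093, 1286 and 1315 counts against 1210, 1386 and 1359, showed the same order in CPM. AZIN1-202, also coding, had 91, 270 and 159 counts against 163, 151 and 122, overlapping. Coding transcripts held 98.0% to 98.9% of the AZIN1 counts in every library, unlike those of both antizymes.

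On the breakdown side, SAT1 (chrX:23783173-23786226, plus strand), the acetyltransferase, was at 53.7, 54.4 and 53.6 CPM in siRNA-NC, against 59.3, 69.5 and 41.1 CPM in si-AC010789.1. The siRNA-NC libraries lay within 1.01-fold of each other, while the si-AC010789.1 libraries spread over 1.69-fold on both sides of them. The log2 fold change was 0.07 ± 0.18 and became -0.10 without si-AC010789.1 replicate 2.

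Most SAT1 counts were not in coding transcripts. As background, inclusion of an extra exon in SAT1 is known to give an mRNA with an early stop codon that is not made into enzyme. In the annotation that exon belongs to SAT1-209, where it is exon 4 of 7, 110 bases long (chrX:23784294-23784403). No other annotated SAT1 transcript has an exon with the same start and end. Whether a longer exon of another transcript covers these bases was not tested. Its first 30 bases (chrX:23784294-23784323, plus strand, from the GENCODE v29 sequence of SAT1-209) show the stop codon, in capitals, that is met in the reading frame of the coding transcript SAT1-204 after 71 codons.
SAT1, start of exon 4 of SAT1-209: gttacagtctcTAGcttcgccatgtacatg
SAT1-209 had 180, 263 and 206 counts in siRNA-NC, against 176, 210 and 188 in si-AC010789.1, and SAT1-204 had 91, 146 and 176 against 87, 156 and 58. Of the counts of this pair, the form with the extra exon held 66.4%, 64.3% and 53.9% in siRNA-NC, against 66.9%, 57.4% and 76.4% in si-AC010789.1, shares that overlapped. SAT1-207, a non-coding processed transcript without an exon of that start and end, had 215, 195 and 197 counts against 295, 325 and 182. On average SAT1-207 held 30.04% of the SAT1 counts in siRNA-NC, against 38.9% after silencing, and SAT1-209 held 31.7% against 29.02%. Coding transcripts together held 29.4%, 32.5% and 38.8% of the SAT1 counts in siRNA-NC, against 23.3%, 31.6% and 22.4% in si-AC010789.1, and their log2 fold change was -0.26 ± 0.32, opposite in sign to that of the whole sum and with overlapping groups.

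SMOX (chr20:4120980-4187747, plus strand), spermine oxidase, was at 28.2, 25.6 and 29.9 CPM in siRNA-NC, against 28.3, 23.6 and 23.2 CPM in si-AC010789.1. si-AC010789.1 replicate 1 lay inside the siRNA-NC range, and the log2 fold change was -0.16 ± 0.11. Nearly all SMOX counts were in coding transcripts, but these differed between libraries far more than the sum. SMOX-202 had 212, 158 and 374 counts in siRNA-NC, against 80, 152 and 72 in si-AC010789.1, with a log2 fold change of -1.25 ± 0.45. The lowest siRNA-NC level and the highest si-AC010789.1 level of SMOX-202 were both 12.3 CPM, so that the groups were apart by less than the rounding. SMOX-203 had 99, 152 and 0 counts against 67, 116 and 61.

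SMOX-201 was at 0 in every siRNA-NC library and at 86, 0 and 69 counts in si-AC010789.1. SMOX-212 had 2, 1 and 12 counts against 48, 3 and 49. These transcripts were singled out after their values were seen. For both, si-AC010789.1 replicates 1 and 3 were high and replicate 2 was not, as for OAZ2-202, and the groups overlapped for SMOX-201 and SMOX-212 alike.

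**Figure D4:**
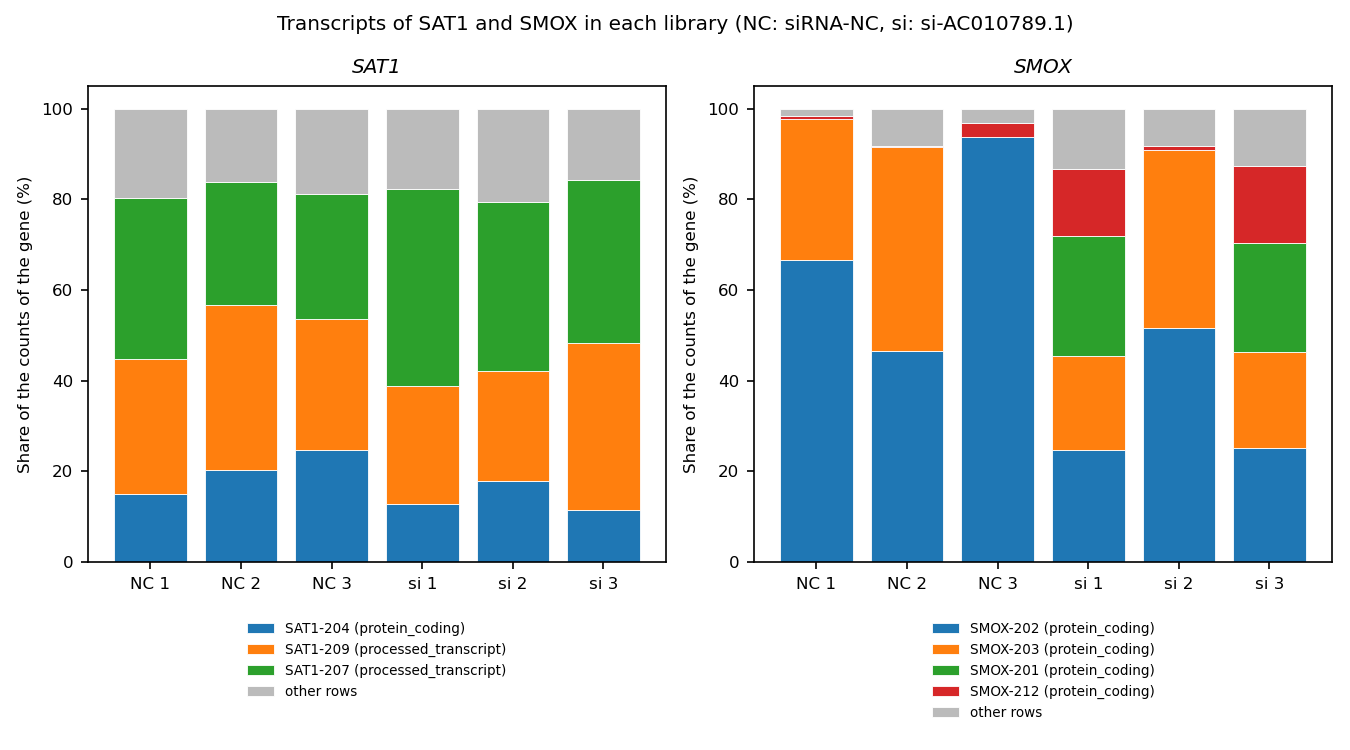
Share in percent of the counts of SAT1 (left) and SMOX (right) held by each transcript in each library, NC for siRNA-NC and si for si-AC010789.1, with the annotated type in the key. The coding SAT1-204 holds 11.4% to 24.6% of SAT1 in every library, and SMOX-202 ranges from 24.7% to 93.7% of SMOX.

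PAOX (chr10:133379234-133391694, plus strand), the oxidase of acetylated polyamines, was barely detected. Its only counted transcript, PAOX-201, had 1, 2 and 1 counts in siRNA-NC, against 1, 4 and 4 in si-AC010789.1. These are at or near the floor of 3 counts, so no fold is given, and a difference was not detectable at this depth. The gene overlaps AL360181.3 on the same strand, which had 18 to 50 counts per library.

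Single transcripts varied more between replicates than gene sums over all features tested, though not in every case: SAT1-209 spread over 1.10-fold among si-AC010789.1 libraries, less than SAT1 as a whole. The biological coefficient of variation, which is edgeR's estimate of replicate spread, was 0.170 for gene sums and 0.698 for transcripts. Of the 63 counted transcripts of the 10 genes, 42 were tested, and 0 passed an adjusted p-value of 0.05 in edgeR's quasi-likelihood test, which 0.0135% of all 44319 transcripts passed. At an unadjusted p-value of 0.05, 5 of the 42 passed, against 5.73% of all transcripts, and 4 of these had an absolute log2 fold change over 1 (OAZ2-205, OAZ2-202, SMOX-202 and SMS-203), against 3.50%. DESeq2 called 1, OAZ2-205, against 0.955% of all. The groups did not overlap for 7 of the 42, 5 higher and 2 lower, against 14.0% of all transcripts, 6.87% higher and 7.10% lower. As with the gene sums, values of this comparison chose the genes, so nothing is read from these shares.

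Other genes of the pathway were taken from a list of 40 written from general knowledge of polyamine supply, transport, use and control. Of these, 35 had counts and 31 were tested, 19 with a higher and 12 with a lower value in si-AC010789.1 and a median log2 fold change of 0.02. Of the 31, 0 passed an adjusted p-value of 0.05 in edgeR's quasi-likelihood fit over all genes. At an unadjusted p-value of 0.05, 7 passed, 4 higher and 3 lower, against 17.2% of all genes, 8.25% higher and 8.92% lower. DESeq2 called 2, AGMAT and MAX, against 5.16% of all genes. AGMAT, whose name stands for agmatinase, which can give putrescine from agmatine, was at 14.98 ± 1.33 CPM in siRNA-NC against 22.0 ± 2.43 CPM after si-AC010789.1 (SD, n = 3 each), with a log2 fold change of 0.55 ± 0.12 and an adjusted p of 0.0977 by edgeR, 0.0241 to 0.243 over the alternatives. MAX, the partner of MYC on DNA, was at 36.0 ± 2.27 and 23.6 ± 4.06 CPM, with a log2 fold change of -0.61 ± 0.14 and an adjusted p of 0.108 by edgeR, 0.0109 to 0.240 over the alternatives. Both were named after their values were seen.

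The remaining relatives of the 10 genes gave no call. OAZ3, the antizyme of the testis, was at 0.739 ± 0.448 and 0.886 ± 0.141 CPM (log2 fold change 0.28 ± 0.47, edgeR adjusted p = 0.809). AZIN2, the other antizyme inhibitor, had 1 to 15 counts per library and was not tested. SAT2, a relative of SAT1, was at 7.91 ± 1.21 and 6.71 ± 1.30 CPM (-0.24 ± 0.19 on the log2 scale, edgeR adjusted p = 0.590). EIF5A, the translation factor that carries hypusine, an amino acid made from spermidine, was at 187, 221 and 189.6 CPM in siRNA-NC, against 254, 246 and 226 CPM in si-AC010789.1. The EIF5A groups did not overlap, yet its log2 fold change of 0.28 ± 0.08 had an edgeR adjusted p of 0.164, and 0.0846 to 0.335 over the alternatives. DHPS, the enzyme that starts hypusine formation, was at 18.5 ± 2.86 and 19.6 ± 2.39 CPM (0.08 ± 0.15 on the log2 scale, edgeR adjusted p = 0.837).

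MYC, which drives ODC1 transcription, was at 169, 119.8 and 10.4 CPM in siRNA-NC, against 12.7, 14.3 and 166 CPM in si-AC010789.1. High and low libraries occurred in both groups, and the log2 fold change of -0.63 ± 1.24 had an edgeR adjusted p of 0.838. ODC1 lay between 139 and 149 CPM in the same 6 libraries, and a relation of ODC1 to MYC was not tested.

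**Figure D5:**
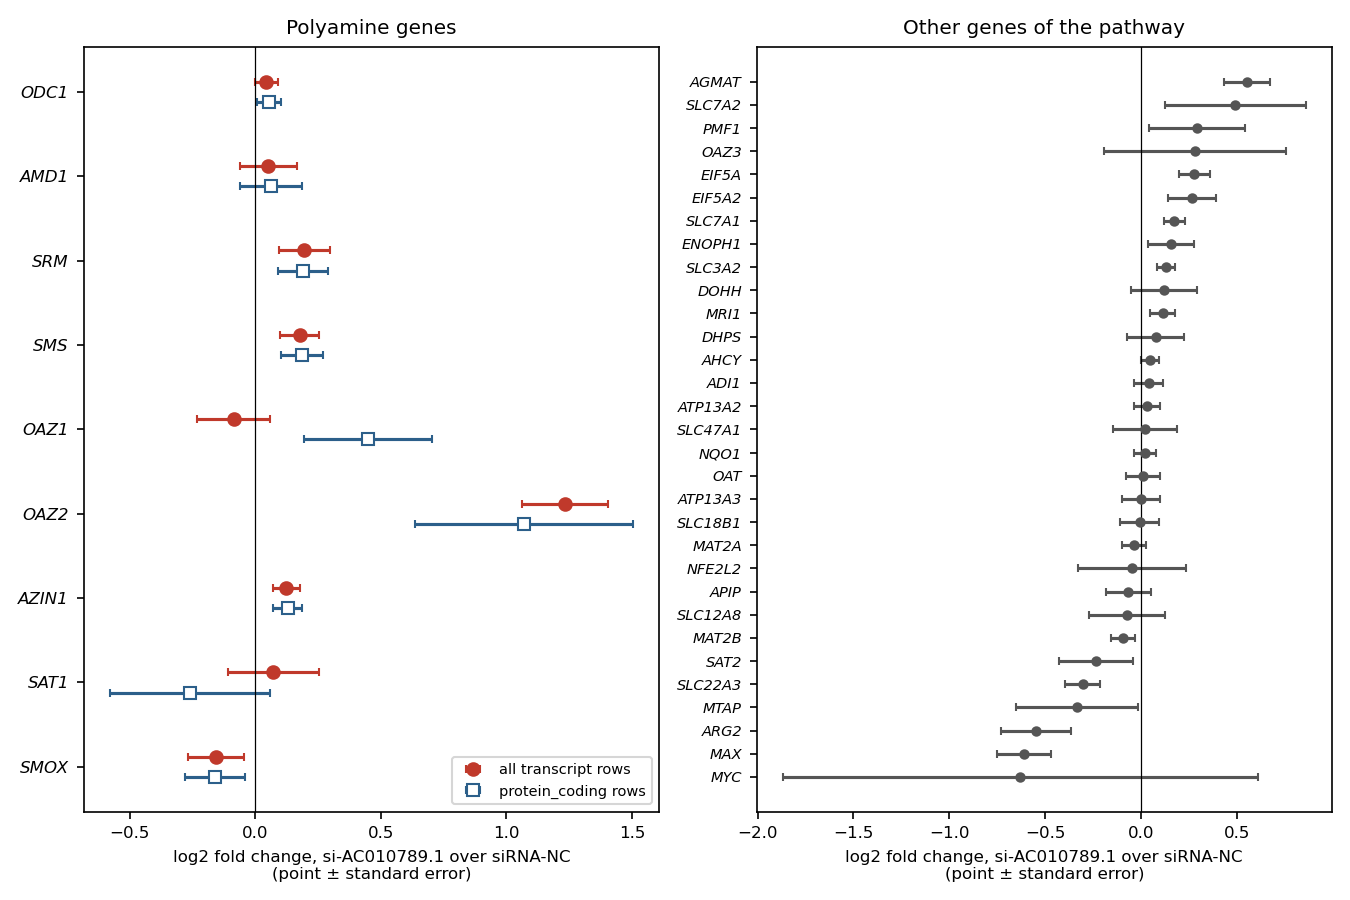
Log2 fold change of si-AC010789.1 over siRNA-NC with its standard error (bars), on the left for the 9 tested polyamine genes with all transcripts summed (filled circles) and with protein-coding transcripts alone (open squares), on the right for the 31 tested genes of the pathway list. OAZ2 lies at 1.23 with all transcripts and at 1.07 ± 0.43 with coding transcripts alone, OAZ1 and SAT1 change sign between the sums, and MYC has the widest bar on the right.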

How the data were processed

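The table deposited by the authors holds read counts, whole and not normalized, for each Ensembl transcript in 6 paired-end TruSeq libraries. The submitters' processing notes name CASAVA 1.8, TopHat2 2.0.6, GRCh38 and mm10 without their roles, and how reads shared by transcripts were divided is not given in the sources used here. That division moves single transcripts more than gene sums. Transcripts were matched by identifier to GENCODE v29 (GRCh38), and 104 of 98886 were unmatched and left out. The table lists only transcripts with at least 3 counts in all. Gene sums were tested with edgeR 4.0.16 in R 4.3.3 (TMM, filterByExpr, quasi-likelihood test, Benjamini-Hochberg over all 13750 genes), with all 6 libraries. Single transcripts were tested in the same way. Standard errors of log2 fold changes are the absolute log2 fold change divided by the square root of the quasi-likelihood F statistic. That statistic uses an estimate of replicate spread that edgeR moderates across genes, or across transcripts. CPM uses TMM-scaled library sizes over the tested genes, or the tested transcripts for single transcripts. Differences are si-AC010789.1 minus siRNA-NC. Floors cover counting error only.

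All 10 genes are named, with transcripts holding at least 10% of a gene's counts on average, listed pathway genes past the threshold, and OAZ3, AZIN2, SAT2, EIF5A, DHPS and MYC. Transcripts below that share were named after their values were seen or for their frameshift site. The genes, lists and tests were chosen with earlier results of these data known. The alternatives were DESeq2 1.42.0, its size factors in edgeR, no filter and a mean of at least 1 CPM. Further ones were the replicate number as a block, coding transcripts only, the longest transcript as length and leaving out each library. OAZ2 without OAZ2-202 was added after seeing the data. The study's criteria (unadjusted p of 0.05 and an absolute log2 fold change over 1) were also applied, with edgeR's p-values in place of those of Cuffdiff. The scripts were tested on simulated data.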

Additional observations from a re-analysis of the deposited data

How the results depend on the processing

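Depth limits PAOX, with 1 to 4 counts per library, and the cause of the changes below was not tested. The number of polyamine genes past the adjusted threshold was 1, OAZ2, and fell to 0 with no filter, with the replicate block and with coding transcripts alone, where the log2 fold change of OAZ2 was 1.23, 1.21 and 1.07. Leaving out each library gave 0 to 1 such genes and an OAZ2 log2 fold change of 1.13 to 1.39, with 1 only without si-AC010789.1 replicate 3. Over all genes the count was 135, against 554 with DESeq2, 69 with no filter, 56 with coding transcripts alone, 0 with the replicate block and 12 to 37 without 1 library. DESeq2 called 2 genes of the pathway list and 1 transcript of the polyamine genes, against 0 in edgeR, and the study's criteria 4 transcripts. Without 1 library the counts for the list and for the transcripts stayed at 0. With the longest transcript as length OAZ2 went from position 8 to 9 of 10 by level. The share of OAZ2-202 was 17.8 percentage points higher in si-AC010789.1, 7.61 to 30.9 without 1 library.

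Small fold changes turned sign. With coding transcripts alone, OAZ1 was at 0.45, SAT1 at -0.26 and SAT2 at 0.016. With each library left out in turn, AMD1 ranged from -0.064 to 0.13 (the lowest lacking siRNA-NC replicate 1), OAZ1 from -0.18 to 0.11 (the highest lacking siRNA-NC replicate 2), SAT1 from -0.099 to 0.26 (the lowest lacking si-AC010789.1 replicate 2), OAZ3 from -0.041 to 0.84 (the lowest lacking siRNA-NC replicate 2) and DHPS from -0.043 to 0.17, below 0 in the absence of siRNA-NC replicate 1 or of si-AC010789.1 replicate 3 (-0.0085). MYC ranged from -2.89 to -0.02.

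The labels give both groups the replicate numbers 1 to 3. The deviations of same-numbered libraries from their group means correlated at 0.111, 0.0109 and 0.0164, and no source used here ties libraries by number, so the block was not taken as a pairing; a shared generation of cells behind a number was not tested. With the replicate block edgeR called 0 genes of all those tested, and 2163 had an unadjusted p under 0.05, against 2360 without it.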
